A study of Mus musculus with 12 samples.

Results

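The genes described here form the negative feedback and transcriptional readout of fibroblast growth factor (FGF) signalling through the kinase ERK. They are the ERK phosphatase genes Dusp4 and Dusp6, the Sprouty genes Spry1, Spry2 and Spry4, the Spred genes Spred1 and Spred2, the PEA3 transcription factor genes Etv4 and Etv5, and the receptor gene Fgfr1. The set is a list of gene names with no threshold on measured values, drawn up with earlier results of these data known, and all 10 genes were found among the 53379 genes counted.

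The samples are laser-captured external granule layer, taken at postnatal day 6 from C57BL/6 mice in the central lobules of the cerebellum, and their RNA was sequenced. Mice lacking SnoN conditionally were set against control littermates labelled wild type; Skil is the gene for SnoN, a regulator of transcription. No further treatment or allele is given, and the labels name neither the Cre driver nor the deleted part of Skil. There were 6 wild-type libraries (WT1, WT2, WT3, WT5, WT6 and WT7) and 6 knockout libraries (KO2, KO3, KO4, KO5, KO6 and KO8). WT2 and KO4 carry an outlier mark from the submitters, so the comparison is 5 against 5 libraries, and values of WT2 and KO4 are given beside it. KO2 carries a wild-type genotype tag and was grouped as knockout by its title. The labels do not say that the libraries came from separate animals, so each p-value here rests on library-to-library spread, possibly technical. In bulk RNA, fewer cells of a type and less RNA per cell cannot be told apart.

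FGF receptors activate Ras and, through a kinase cascade, ERK. ERK in turn raises transcription of Etv4 and Etv5 and of inhibitors that act on the pathway itself, so these transcripts are commonly read as a gauge of pathway activity. In the postnatal cerebellum, granule neuron precursors of the external layer divide in response to Sonic hedgehog, and FGF signalling is known to counter that response in cultured precursors. SnoN binds SMAD proteins and acts in the TGF-beta pathway.

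RefSeq promoter windows (GRCm38.p6, 250 bases before to 50 after the start) were matched for 6 of the 10 genes, in 7 windows, since Etv5 has more than one. Promoters of Dusp4, Spry4, Etv4 and Fgfr1 were not analysed here. Capicua, a repressor that ERK signalling releases from its targets, binds octamers written TGAATGAA, TGAATGGA, TCAATGAA or TCAATGGA. On either strand, 2 of the 7 windows held such letters, those of Dusp6 and Spry2, and 3.84% of all 32851 windows did. The letters CCGGAAGT (ETS factors, 3.89% of all windows), TGACTCA (AP-1, 5.2%) and GTCTAGAC (the SMAD palindrome, 0.213%), searched on both strands, were in none of the 7. Since Capicua letters alone were matched, no match overlapped another searched motif. The windows with Capicua letters are shown from 250 bases before to 20 bases after the start, 5′ to 3′ on the gene's strand, because they place the letters of a known ERK-regulated repressor beside the start sites. Capitals mark the octamers, which read here as their reverse complements. Dusp6 is at chr10:99262981-99263250 on the plus strand and Spry2 at chr14:105896800-105897069 on the minus strand.
Dusp6: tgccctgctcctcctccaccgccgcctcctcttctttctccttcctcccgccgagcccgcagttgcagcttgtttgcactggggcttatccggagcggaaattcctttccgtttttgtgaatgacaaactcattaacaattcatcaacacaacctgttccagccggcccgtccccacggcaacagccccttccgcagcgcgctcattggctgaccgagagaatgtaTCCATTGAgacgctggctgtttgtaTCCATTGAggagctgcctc
Spry2: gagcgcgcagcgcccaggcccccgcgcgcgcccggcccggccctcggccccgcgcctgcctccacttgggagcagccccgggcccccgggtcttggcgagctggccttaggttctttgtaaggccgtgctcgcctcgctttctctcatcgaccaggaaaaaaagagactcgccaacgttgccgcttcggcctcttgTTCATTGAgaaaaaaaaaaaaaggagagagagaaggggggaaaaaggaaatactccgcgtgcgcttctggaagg
The first Dusp6 octamer begins 24 bases before the start and the other at base 2 of the transcript, and the Spry2 octamer begins 54 bases before the start. A match describes the letters of the window and shows no binding. The edgeR adjusted p of Dusp6 was 0.318 and that of Spry2 was 0.691 between knockout and wild type.

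Total gene counts ranged from 7520076 to 15083086 per library. Skil was lower in each of the 5 knockout libraries (20.9 to 36.7 CPM, counts per 1e+06 scaled by TMM) than in each of the 5 wild-type libraries (38.5 to 57.8 CPM), with 76.5 CPM in WT2 and 14.0 CPM in KO4. KO2, whose genotype tag says wild type, had 36.1 CPM of Skil. Its adjusted p was 0.124 by the quasi-likelihood test of edgeR, with Benjamini-Hochberg adjustment over all genes tested. In 5 of the 24 alternative settings described below, Skil passed an adjusted p of 0.05 (2.6e-04 to 0.9985 over all of them). Groups were separate with knockout lower for 1.31% of all genes tested. Markers of granule precursors summed to 2054 to 2387 CPM in the controls and to 2155 to 2853 CPM in the knockout libraries, and all 10 of them passed the low-count filter. Markers of other cells were present as well: Purkinje cell markers summed to 330 to 446 CPM against 411 to 663 CPM, with 9 of 10 tested and Skor2 under 1 CPM in every library. Markers of Bergmann glia and astrocytes, all 12 tested, summed to 855 to 1301 CPM against 1107 to 1580 CPM. In WT2 both sums lay above those of every other library, at 811 CPM and 2369 CPM. Before adjustment, 5 Purkinje markers had p under 0.05 with a higher knockout level and 1 with a lower one, and for glial markers these numbers were 3 and 0. Over all genes tested, 11.8% had such a p with a higher knockout level and 9.97% with a lower one.

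All 10 feedback genes passed the low-count filter, and their lowest count in a compared library was 13 reads, for Spry4. Per kilobase of annotated exon, Spred1 had the highest wild-type level, at 11.1 ± 1.33 CPM per kb (SD, n = 5). Dusp4 (6.94 ± 0.963 CPM per kb), Spry2 (6.45 ± 0.836) and Dusp6 (5.76 ± 1.03) came next, and the ranges of these 3 overlapped. Spred2 followed at 4.25 ± 0.919 CPM per kb, with a range that overlapped that of Dusp6. Lower down, Fgfr1 (2.07 ± 0.204 CPM per kb), Etv4 (2.05 ± 0.564) and Spry1 (1.49 ± 0.266) were neighbours whose ranges also overlapped, and so did those of Spry1 and Etv5 (1.24 ± 0.148). Spry4 was lowest at 0.491 ± 0.186 CPM per kb, below every wild-type library of the other 9 genes. Among the Sproutys, Spry2 was above Spry1 and Spry1 above Spry4 in all 5 wild-type libraries on this scale. The lengths are those of all annotated exons merged, from 2.087 kb for Spry2 to 9.875 kb for Fgfr1.

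**Figure D1:**
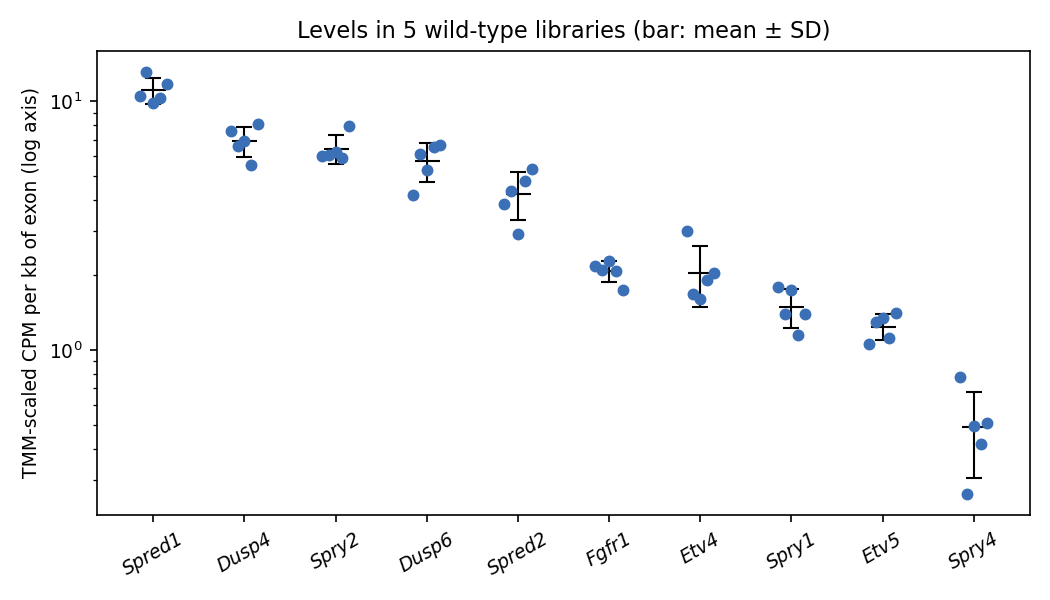
Wild-type levels of the 10 genes in TMM-scaled CPM per kilobase of exon on a log axis; points are the 5 wild-type libraries and bars the mean ± SD. Spred1 sits highest at a mean of 11.1 and Spry4 lowest at 0.491.

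The knockout comparison asks which feedback transcripts differ in this layer between libraries labelled knockout and wild type. By edgeR, 0 of the 10 reached an adjusted p of 0.05, as 0.0223% of the 13442 genes tested did. DESeq2 called 1, Dusp4, beside 4.59% of the 10054 genes to which it gave an adjusted p, which left out Spry1, Spry4 and Etv5. With p under 0.05 before adjustment, 0 of the 10 had a higher knockout level, where 11.8% of all genes tested did, and 1, again Dusp4, had a lower one, where 9.97% did. Knockout and wild-type values overlapped for all 10 genes, while they were separate for 2.35% of all genes tested, higher in knockout for 1.04% and lower for 1.31%. The median log2 fold change of the 10 genes was 0.12, beside 0.00133 over all genes tested, with 7 values above 0 and 3 below.

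**Figure D2:**
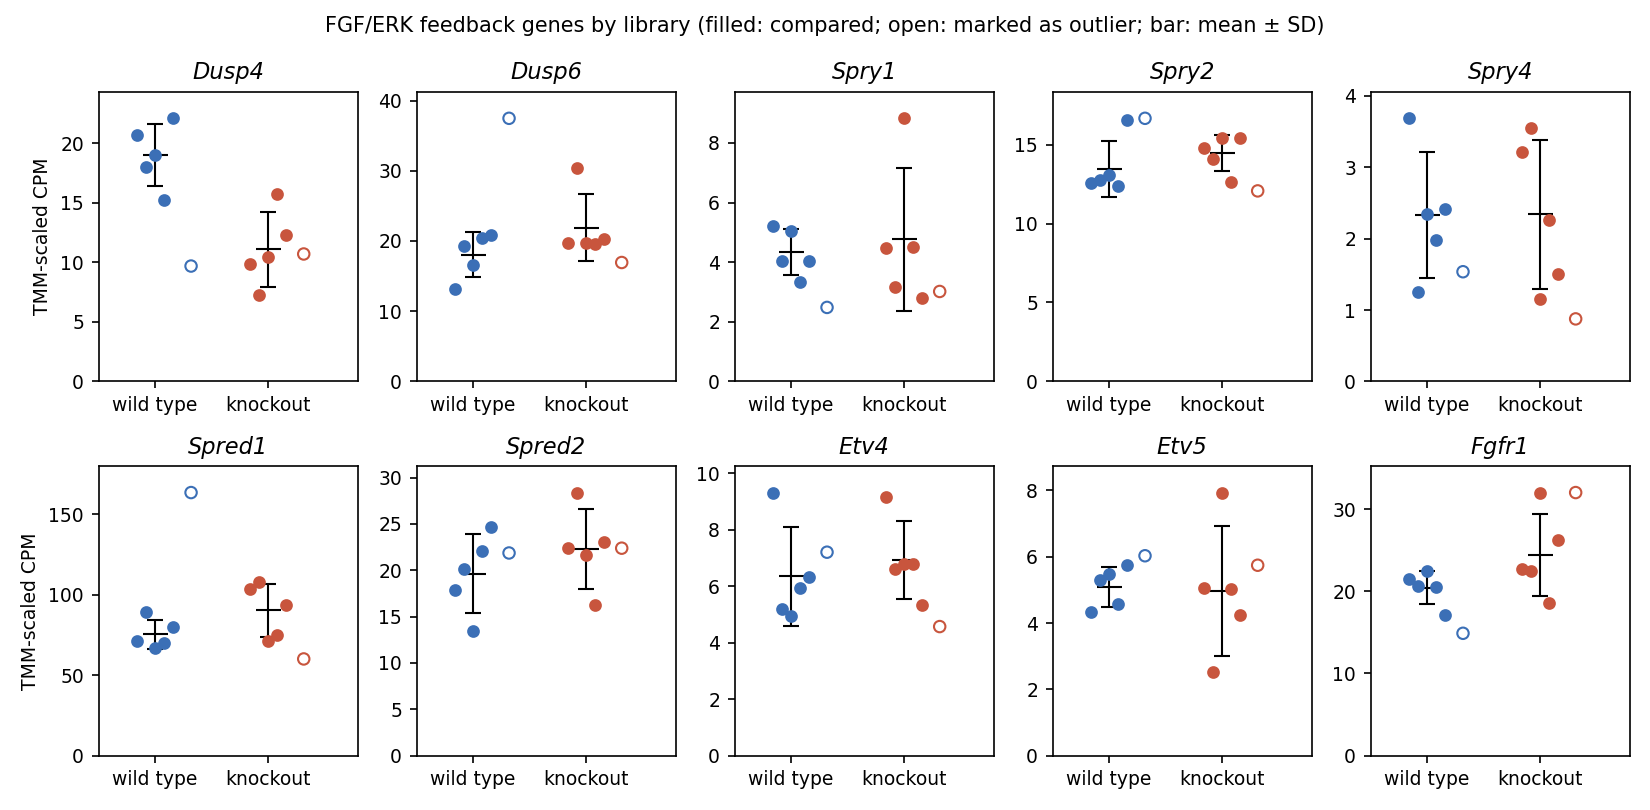
TMM-scaled CPM of each gene by library; filled points are the 5 wild-type and 5 knockout libraries compared, open points WT2 and KO4, and bars the mean ± SD of the filled points. Dusp4 is the gene whose groups lie furthest apart for their spread, with means of 19.0 and 11.1 CPM.

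Dusp4 (ENSMUSG00000031530.6; chromosome 8, 34807297 to 34819894 in GRCm38, plus strand) encodes a nuclear phosphatase that inactivates ERK and is itself induced by ERK signalling. Control libraries, from low to high, had 15.2 (WT6), 18.03 (WT3), 19.0 (WT5), 20.7 (WT1) and 22.1 (WT7) CPM. Their knockout counterparts had 7.28 (KO3), 9.83 (KO2), 10.4 (KO5), 12.3 (KO8) and 15.7 (KO6) CPM. Thus 4 of the 5 knockout libraries lay below every wild-type library, and KO6 lay just above WT6. The means were 19.0 ± 2.64 CPM and 11.1 ± 3.14 CPM (SD over 5 libraries each), and their ratio was 0.584. The log2 fold change was -0.78 (SE 0.18, 95% interval -1.162 to -0.40), with an unadjusted p of 4.5e-04 and an adjusted p of 0.124 in edgeR's test. A two-sided exact permutation test gave p = 0.0159, where 5 against 5 libraries cannot give less than 0.00794.

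Of the marked libraries, WT2 had 9.69 CPM of Dusp4 and KO4 10.7 CPM, both within the range of the 5 knockout libraries. Including both gave a log2 value of -0.67 with an unadjusted p of 0.00527 and an edgeR adjusted p of 0.9985. Libraries also differed in how abundance depended on GC content: the slope of a library's deviation from the mean log2 CPM, per 10 points of GC, was positive in all 5 wild-type libraries (0.04 to 0.28), positive in 2 of 5 knockout libraries (-0.22 to 0.19 overall) and -0.47 in WT2. The longest Dusp4 transcript has a GC content of 56.0%. With each library's GC trend removed, Dusp4 averaged 17.7 ± 2.63 CPM (SD, n = 5) in the controls, 11.5 ± 3.13 CPM (SD, n = 5) in the knockout libraries, and stood at 12.4 CPM in WT2. The log2 value was then -0.62, with an unadjusted p of 0.00190 and an edgeR adjusted p of 0.166. KO5 had a GC slope of 0.19, and its Dusp4 value was 10.4 CPM before and 9.39 CPM after the trend was removed. Dusp4 passed without KO5 (edgeR adjusted p = 0.00607), where 3102 genes, 22.9% of those tested, passed, and with no low-count filter (0.00160), where 3.49% did. Because GC slopes differed between the groups, their part in the Dusp4 values cannot be told apart from that of the knockout. The part of the Purkinje and glial markers was not tested.

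**Figure D3:**
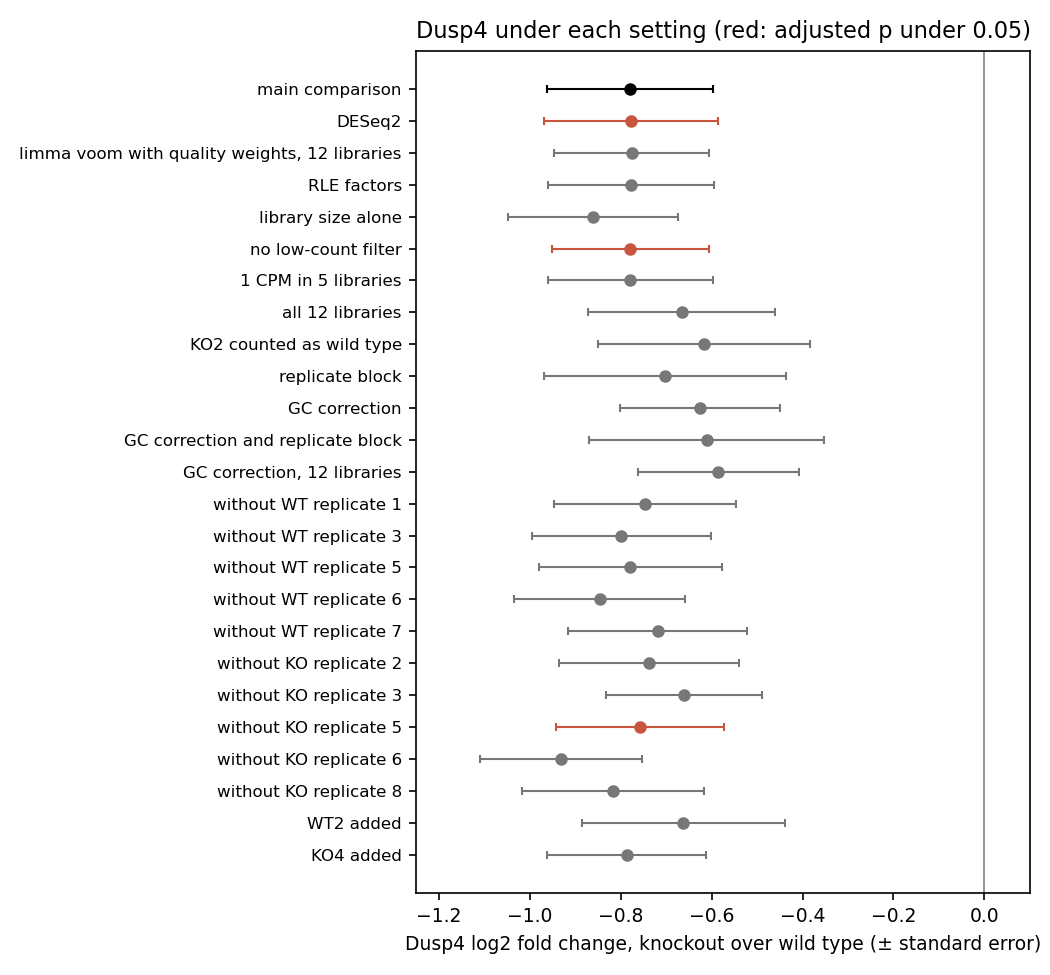
Log2 fold change of Dusp4, knockout over wild type, with standard errors, for the main comparison and 24 other settings. Every value is below 0, from -0.93 to -0.59, and the 3 in red have an adjusted p under 0.05.

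Dusp6 (chromosome 10, 99263231 to 99267489) encodes the cytoplasmic ERK phosphatase of the set. In ascending order the controls gave 13.2 (WT1), 16.6 (WT5), 19.3 (WT3), 20.4 (WT6) and 20.9 (WT7) CPM. The knockout libraries gave 19.5 (KO6), 19.7 (KO5), 19.8 (KO2), 20.2 (KO8) and 30.3 (KO3) CPM. The knockout values other than KO3 lay inside the wild-type range, and WT2, at 37.5 CPM, lay above all of them. The log2 fold change was 0.28 (SE 0.16, 95% interval -0.06 to 0.63, edgeR adjusted p = 0.318). It was 0.14 without KO3 and -0.00836 with WT2 and KO4 included. KO3 had the highest sums of Purkinje (663 CPM) and glial (1580 CPM) markers among the 10 compared libraries, and their part in its Dusp6 value was not tested.

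Sprouty proteins are membrane-bound inhibitors that act downstream of the receptor. Spry2 (chromosome 14, 105891947 to 105896819), the one with the highest level per kilobase, averaged 13.5 ± 1.75 CPM in the controls and 14.5 ± 1.157 CPM in the knockout libraries (SD, n = 5 each). The controls ran from 12.4 to 16.5 CPM and the knockout from 12.6 to 15.4 CPM, so the second range lay inside the first, with 16.7 CPM in WT2 and 12.1 CPM in KO4. Its log2 fold change was 0.10 (95% interval -0.19 to 0.40, edgeR adjusted p = 0.691), the narrowest interval among the 3 Sproutys. Spry4 (chromosome 18, 38586247 to 38601415) rested on 13 to 51 reads per compared library. Its means were 2.34 ± 0.884 and 2.34 ± 1.04 CPM (SD, n = 5 each), and the ranges, 1.25 to 3.69 and 1.159 to 3.55 CPM, nearly coincided. With a log2 interval of -0.79 to 0.75 (edgeR adjusted p = 0.977), the comparison does not resolve differences of either sign inside it.

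Spry1 (chromosome 3, 37639947 to 37644598) lies 6.54 Mb from Skil. Control libraries spanned 3.34 (WT6), 4.05 (WT3), 4.05 (WT7), 5.04 (WT5) and 5.20 (WT1) CPM. Knockout libraries spanned 2.81 (KO8), 3.17 (KO3), 4.48 (KO2), 4.52 (KO6) and 8.82 (KO5) CPM. KO5 stood above all other libraries, and the remaining 4 knockout values were spread through and below the wild-type range. The log2 fold change was 0.12 (SE 0.29, edgeR adjusted p = 0.825) and turned to -0.23 without KO5. KO5 also had the highest sum of meningeal markers among the compared libraries (865 CPM, beside 454 to 824 CPM in the other 9), whose part in this value was not tested. Spry1 exons overlap 710 bases of the opposite-strand gene Gm42922, and the library kit does not mark strand. Whether reads from these bases were counted or set aside is not given.

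Spred proteins recruit neurofibromin to the membrane, where it turns Ras off. Spred1 (chromosome 2, 117121374 to 117182279) stood at 67.0 (WT5), 70.04 (WT6), 70.9 (WT1), 79.8 (WT7) and 89.0 (WT3) CPM in the controls. In the knockout it stood at 71.0 (KO5), 74.9 (KO6), 93.6 (KO8), 103 (KO2) and 108 (KO3) CPM. The 3 highest knockout values lay above the wild-type range and the other 2 within it. The log2 fold change was 0.26 (SE 0.13, 95% interval -0.01 to 0.53, edgeR adjusted p = 0.248). The 3 high knockout libraries, KO2, KO3 and KO8, were those with negative GC slopes, and the longest Spred1 transcript has the lowest GC content of the set at 41.2%. With the GC trend removed the means were 82.3 ± 7.20 CPM and 83.7 ± 6.60 CPM (SD, n = 5 each) and the log2 fold change was 0.03. WT2, with its slope of -0.47, had 163 CPM, the highest of the 12, and the log2 fold change with WT2 and KO4 included was -0.0792. Because GC slopes also differed between the groups, their part in the Spred1 values cannot be told apart from that of the knockout. Spred2 (chromosome 11, 19924375 to 20024026) had 19.6 ± 4.24 and 22.3 ± 4.32 CPM (SD, n = 5 each), with overlapping ranges of 13.5 to 24.7 and 16.2 to 28.4 CPM, and 21.9 CPM in WT2 and 22.4 CPM in KO4. Its log2 fold change was 0.19, with an interval of -0.17 to 0.55 and an edgeR adjusted p of 0.530.

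Etv4 and Etv5 encode activators of the ETS family, and ERK signalling raises both the transcripts and the activity of the proteins. Etv4 (chromosome 11, 101769742 to 101785371) averaged 6.35 ± 1.75 CPM in the controls and 6.93 ± 1.38 CPM in the knockout libraries (SD, n = 5 each), with WT1 (9.32 CPM) and KO2 (9.15 CPM) high in their groups. Its log2 fold change was 0.12 (95% interval -0.34 to 0.57, edgeR adjusted p = 0.781) and became -0.00229 without KO2. Etv5 (chromosome 16, 22381309 to 22439719) had 5.09 ± 0.607 and 4.96 ± 1.96 CPM (SD, n = 5 each), and a log2 fold change of -0.04 (95% interval -0.58 to 0.50, edgeR adjusted p = 0.943). KO3 at 2.52 CPM and KO5 at 7.93 CPM lay on either side of the whole wild-type range of 4.34 to 5.75 CPM. Neither factor showed a difference larger than the spread between libraries.

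Fgfr1 (chromosome 8, 25513654 to 25575718) encodes a receptor tyrosine kinase of the FGF family. Sorted upward, control libraries held 17.1 (WT7), 20.5 (WT6), 20.6 (WT3), 21.5 (WT1) and 22.5 (WT5) CPM. Those of the knockout held 18.6 (KO6), 22.5 (KO3), 22.7 (KO2), 26.2 (KO8) and 31.9 (KO5) CPM. KO5 and KO8 stood clear of the control range, KO2 and KO3 were barely above its upper end, and KO6 was inside it. The log2 fold change was 0.26 (SE 0.15, 95% interval -0.05 to 0.57, edgeR adjusted p = 0.310). It was 0.40 with the GC trend removed (unadjusted p = 0.00862, adjusted p = 0.204), 0.39 with WT2 (14.9 CPM) and KO4 (32.02 CPM, the highest of the 12) included, and 0.14 without KO5. Fgfr1 exons overlap 164 bases of the antisense gene Gm16159. Without strand, reads there cannot be told apart, and whether they were counted or set aside is not given.

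**Figure D4:**
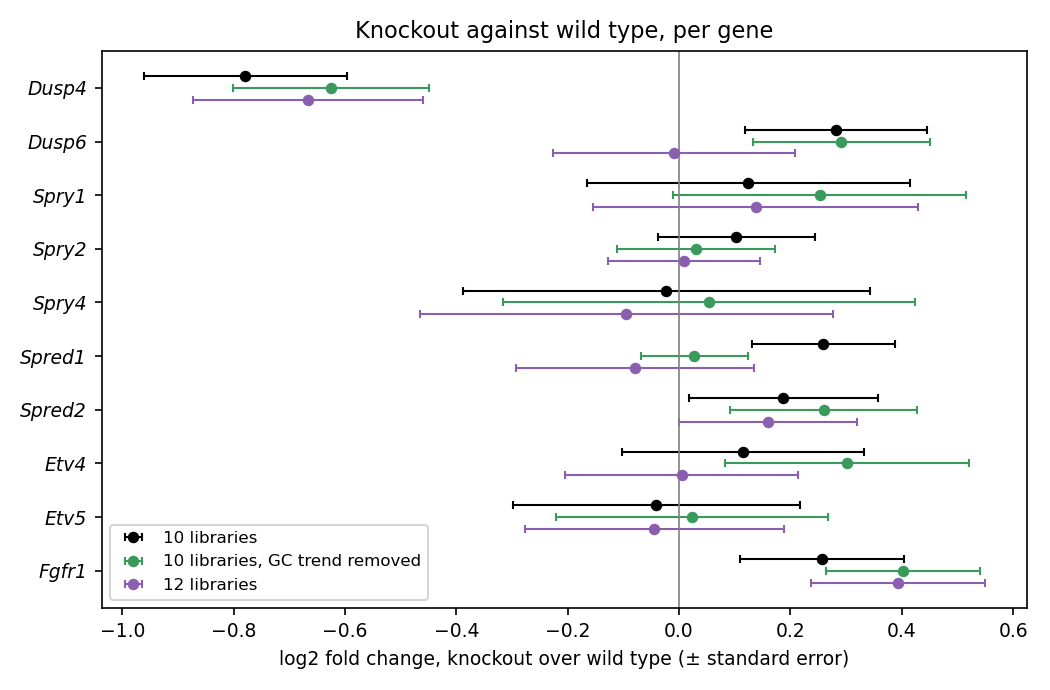
Log2 fold change of each gene, knockout over wild type, with standard errors, for 10 libraries, 10 libraries with the GC trend removed, and 12 libraries. Dusp4 is below 0 in all 3 fits, at -0.78, -0.62 and -0.67, and Spred1 moves from 0.26 to 0.03 and -0.0792.

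Across the 10 compared libraries the genes did not share an order. KO3 was highest for 3 of the 10 genes and lowest for 2, KO5 was highest for 3 and lowest for 1, WT1 and WT7 were each highest for 2 and lowest for 1, and WT5 was lowest for 3. No library was at 1 end for all genes, and KO3, the lowest for Dusp4, was the highest for Dusp6.

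Upstream of these genes, 8 of 18 listed FGF ligands passed the low-count filter. Fgf9, a secreted ligand, had the smallest p of the list. It averaged 28.8 ± 3.91 CPM in the controls and 39.0 ± 8.58 CPM in the knockout (SD, n = 5 each), with an edgeR adjusted p of 0.145 for a log2 fold change of 0.44, and WT2 lay among the knockout values at 46.4 CPM. Fgf3 was at 2.29 ± 0.850 and 1.11 ± 0.569 CPM (adjusted p = 0.181). Of 6 other receptors and coreceptors listed, 4 were tested and 0 had an unadjusted p under 0.05, where 21.8% of all genes tested did. Fgfr2 was at 2.39 ± 0.812 and 2.998 ± 0.910 CPM. Fgfrl1, a receptor without a kinase domain, had 7.56 ± 1.20 and 8.30 ± 1.29 CPM (log2 fold change 0.14), and Kl, a coreceptor, had 1.13 ± 0.537 and 0.588 ± 0.350 CPM.

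Heparan sulfate helps FGFs bind their receptors, and 19 of its 20 listed enzymes and proteoglycans were tested. Before adjustment 1 had p under 0.05 with a higher knockout level and 5 with a lower one, where 11.8% and 9.97% of all genes tested did, and the median log2 fold change was -0.0810. Hs6st2, a sulfotransferase, was at 19.6 ± 3.52 CPM and 29.2 ± 7.12 CPM (SD, n = 5 each; edgeR adjusted p = 0.131). The glypican Gpc2 was at 3.05 ± 0.871 and 1.69 ± 0.373 CPM (adjusted p = 0.155). All 5 knockout libraries lay below all 5 wild-type libraries for Gpc2, as for 1.31% of all genes tested. The glypican Gpc1 was at 204 ± 30.7 and 193 ± 9.40 CPM (log2 fold change -0.0810).

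All 26 listed adaptors, Ras genes and kinases of the ERK cascade were tested, and by the same measure 2 had a higher and 5 a lower knockout level, beside the same 11.8% and 9.97% of all genes. Crkl, an adaptor, averaged 35.0 ± 6.80 CPM in the controls against 23.2 ± 5.72 CPM (SD, n = 5 each), which is -0.60 in log2 with an edgeR adjusted p of 0.131. The adaptor Crk had 260 ± 17.7 and 312 ± 32.2 CPM and a log2 fold change of 0.27 (adjusted p = 0.158). Of 11 Ras GTPase activators and receptor-level inhibitors, 2 had a higher and 1 a lower knockout level by that measure, again beside 11.8% and 9.97%. Rasa1, a Ras GTPase activator, was at 143 ± 21.8 and 180 ± 32.3 CPM. Lztr1, an adaptor for Ras degradation, was at 106 ± 3.71 and 91.6 ± 3.70 CPM (adjusted p = 0.181 for each gene). The Lztr1 groups did not overlap, with knockout lower, as in 1.31% of all genes tested.

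Of 8 other MAP kinase phosphatases listed, 7 were tested and 0 had an unadjusted p under 0.05, where 21.8% of all genes did. Dusp8 had 51.9 ± 8.80 CPM and 44.7 ± 9.63 CPM (SD, n = 5 each; edgeR adjusted p = 0.415), and Dusp7, an ERK phosphatase, had 5.23 ± 1.55 and 4.13 ± 1.06 CPM. Etv1, the PEA3 factor outside the set, had 11.3 ± 3.33 and 16.9 ± 4.02 CPM (0.58 in log2, adjusted p = 0.150), whereas Spred3 had 4.52 ± 1.17 and 4.26 ± 1.23 CPM. The Capicua complex had 3 of 3 genes tested and 0 with an unadjusted p under 0.05, beside the same 21.8% of all genes. Cic itself was at 25.0 ± 1.60 and 25.3 ± 2.93 CPM (log2 fold change 0.02, 95% interval -0.24 to 0.27), and its partners Atxn1 and Atxn1l had 3.05 ± 2.17 against 5.12 ± 1.26 CPM and 14.6 ± 2.57 against 16.6 ± 1.28 CPM.

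Of 14 ERK-responsive immediate-early genes and partners of the serum response factor, 12 were tested, and before adjustment 3 had p under 0.05 with a higher knockout level and 1 with a lower one, where 11.8% and 9.97% of all genes did. Phlda1, an ERK-induced gene, averaged 8.42 ± 1.70 CPM in the controls and 12.7 ± 4.65 CPM in the knockout libraries (SD, n = 5 each; edgeR adjusted p = 0.158). Ier2, an immediate-early gene, had 36.4 ± 2.98 and 29.8 ± 3.54 CPM (adjusted p = 0.176), and the ETS factor Elk1 had 61.7 ± 1.14 and 66.3 ± 8.24 CPM. WT2 lay on the knockout side for several of these genes, with 52.0 CPM of Hs6st2, 17.6 CPM of Crkl, 421 CPM of Crk, 261 CPM of Rasa1 and 26.9 CPM of Etv1. Values of the pathway lists are given without GC correction, and the part of GC content in them was not tested. By edgeR adjusted p, 0 genes of these 9 lists passed 0.05, beside 0.0223% of all genes tested, and the list medians ran from -0.10 to 0.29 in log2.

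**Figure D5:**
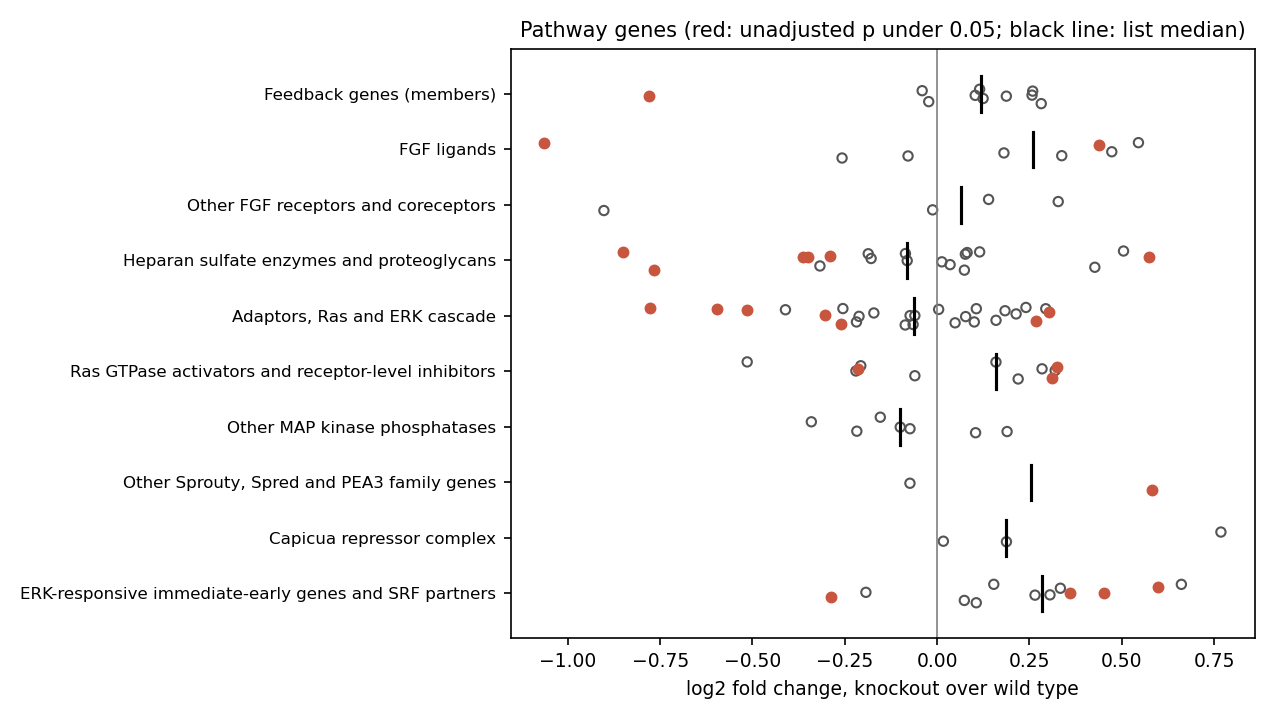
Log2 fold changes, knockout over wild type, of the 10 feedback genes and of the tested genes of 9 pathway lists; red points have an unadjusted p under 0.05 and black lines are list medians. The medians lie between -0.10 and 0.29, and red points occur on both sides of 0.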

How the data were processed

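RNA sequencing of laser-captured external granule layer gave 12 tables, 1 per library. Each holds deposited read counts for every gene, in whole numbers and without normalization. The submitters' processing notes name mm10, HTSeq 0.6.1, STAR 2.5.3a, cutadapt 1.16 and DESeq2. Neither tool settings nor the annotation nor strandedness of counting is given there or in the labels. NEBNext Ultra was the kit, per the labels' protocols. Total counts were 7520076 to 15083086 per library, and 5 summary rows were left out. Reads placed at more than 1 position made up 64.4% to 67.6% of records. Among unique ones, 10.8% to 14.7% hit no gene and 6.81% to 8.13% hit several. Identifiers were matched without version to GENCODE M21 (GRCm38, 53274 of 53379 genes).

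Genes were filtered with filterByExpr (minimum count 10), scaled by TMM and compared by edgeR 4.0.16's quasi-likelihood test with robust dispersion (limma 3.58.1, R 4.3.3). The adjusted p is Benjamini-Hochberg over all 13442 genes tested, and the threshold was 0.05. Standard errors and 95% intervals come from the quasi-likelihood F statistic. Printed means and SDs use CPM scaled by TMM factors of all 12 libraries. The exact permutation tests used log2(CPM + 1), 1 for each of the 10 genes. Per-library GC trends were splines with 5 degrees of freedom on the GC content of each gene's longest transcript. No pair of libraries within a group agreed within sampling noise (chi-square over its degrees of freedom, 6.60 to 92.6). The procedure was also run on simulated counts. These held no GC trend and no difference in cell types between libraries, so they do not bear on either.

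The members and lists were chosen with earlier results of these data known. Genes named are the 10 members, Skil, for each pathway list the 2 tested genes with the smallest p and the most abundant one, and genes that overlap a member or define a marker list; 1 gene this rule names is not reported here. Alternatives were DESeq2 1.42.0, limma voom with quality weights on all 12 libraries, scaling by RLE or by library size, other low-count filters, all 12 libraries, KO2 as wild type, the replicate block, GC correction and each library left out. Adding only WT2 or only KO4 was chosen after seeing the data.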

Additional observations from a re-analysis of the deposited data

Results flagged for a closer look

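Among the 20 groups of 5 libraries examined (10 genes, wild type and knockout), 3 held a library that stood far from the others of its group, where chance gives about 1 in 20. Dusp6 was at 30.3 CPM in KO3, and the other knockout libraries lay between 19.5 and 20.2 CPM. Spry1 was at 8.82 CPM in KO5, and the next knockout library at 4.52 CPM. Spry2 was at 16.5 CPM in WT7, and the other wild-type libraries lay between 12.4 and 13.0 CPM. Dixon's ratio was compared with its critical value of 0.71 for 5 libraries.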

How the results depend on the processing

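Dusp4 kept its direction under all 24 alternatives (log2 fold change -0.93 to -0.59, unadjusted p under 0.05 in each, adjusted p 0.00160 to 0.9998), and passed with DESeq2 (adjusted p = 0.0131), with no low-count filter (0.00160) and without KO5 (0.00607). The number of genes called, 3 in the main comparison, was 461 with DESeq2, 965 with no low-count filter, 5 with GC correction, 1 with all 12 libraries, 1 with KO4 added and 0 with KO2 counted as wild type, and 0 to 3102 (without KO5) when 1 library was left out. Of the 10 feedback genes, 0 passed in the main comparison, 1 with DESeq2, 1 with no low-count filter, and 0 to 2 with 1 library left out, the 2 being Dusp4 and Spred1 (0.33, adjusted p = 0.0387) without KO5. Those with an unadjusted p under 0.05, 1 in the main comparison, numbered 2 with no low-count filter, 2 with all 12 libraries, 2 with GC correction, 2 with GC correction on 12 libraries, 2 with KO4 added and 1 to 3 with 1 library left out (3 without KO6). The causes were not tested.

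Signs turned for 7 of the 10 genes, and the cause was not tested. With all 12 libraries the log2 fold change was -0.00836 for Dusp6 and -0.0792 for Spred1. With GC correction on 12 libraries it was -0.00289 for Dusp6, -0.0204 for Spry2 and -0.12 for Spred1. With GC correction on 10 it was 0.0543 for Spry4 and 0.0235 for Etv5, with voom -0.20 for Spry1, with WT2 added -0.00138 for Spred1 and 0.0552 for Spry4, and with KO2 as wild type -0.10 for Etv4. With 1 library left out the ranges were -0.23 to 0.27 for Spry1, -0.22 to 0.21 for Spry4, -0.00229 to 0.30 for Etv4 and -0.28 to 0.13 for Etv5. Using library size alone moved the median of all genes from 0.00133 to -0.0829 (log2).

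With the replicate number as a block, 0 genes were called, with or without GC correction. Spry4 was then at 0.24, and 0.27 with GC correction, and Dusp4 was at -0.70 (unadjusted p = 0.0204) and -0.61 (0.0317). The shared numbers 3, 5 and 6 did not pair the libraries: the correlations of their deviations were 0.111, -0.0470 and 0.0936, and 0 of 3 matched its own number best. Standard errors were 0.22 to 0.37 (log2) for Spry4, Spry1, Etv4 and Etv5, which had 13 to 129 reads per compared library, and the part of depth in them was not tested.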

Other observations

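The tested genes near Dusp4 on chromosome 8 were also compared between the groups. Of the 29 tested genes that start within 5 Mb of it, 5 were higher and 3 lower in knockout at an unadjusted p under 0.05, which is 27.6% beside 21.8% of all genes tested. Of the 3 genes with an edgeR adjusted p under 0.05 over the transcriptome, 2 are among them, both on chromosome 8: the tRNA methyltransferase homologue Trmt9b (log2 fold change 2.18, adjusted p = 0.0124) starts 1.65 Mb away and the fucosyltransferase Fut10 (-0.79, adjusted p = 0.0160) 3.62 Mb away. Tnks, a poly-ADP-ribose polymerase gene that starts at 34826460, had an adjusted p of 0.227 for a log2 fold change of 0.33. The window and these genes were chosen after their values were seen. For the other 9 feedback genes the share of tested neighbours within 5 Mb at that level was 16% (Fgfr1, also on chromosome 8) to 37.5% (Spry2, 16 genes), and none of those neighbours passed over all genes.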
